A study of Caenorhabditis elegans with 14 samples.

Results

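Cuticlins are structural proteins of the nematode cuticle, the extracellular coat that the epidermis secretes at each larval stage. They belong to the fraction of the cuticle that stays insoluble after the collagens have been released by reducing agents. Most cuticlins carry a zona pellucida (ZP) domain, a module through which extracellular proteins polymerize into filaments. Several are known from the alae, the ridges above the lateral seam cells. CUT-2 is of another kind, a protein with repeated tyrosine-containing motifs that a peroxidase can link through dityrosine in the test tube. The members described here are all genes whose WormBase symbol consists of *cut* or *cutl* (cuticlin-like) and a number. There were 35 of them among 21982 listed genes, 6 of the *cut* series and 29 of the *cutl* series, and the rule itself uses the symbol only.

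Counts came from 14 libraries of total RNA of whole *C. elegans*, which the labels describe as biological replicates of day 1 adults. The groups were *skpo-1* mutants on *E. faecalis* OG1RF (4 libraries), *skpo-1* mutants on *E. coli* OP50 (3), N2 on *E. faecalis* OG1RF (3) and N2 on *E. coli* OP50 (4), each exposed to the bacteria for 16 h from the L4 larval stage. N2 is the wild type, and the mutants were of 1 strain, GF89, with the deletion allele *ok1640* of *skpo-1*, a gene for a peroxidase with a ShK toxin-like domain that acts in the hypodermis. *E. faecalis* is a pathogen of the worm, and *E. coli* OP50 is its usual laboratory food. The comparisons asked how the RNA of this family differed between the bacteria in each genotype, between the genotypes on each bacterium, and whether the genotypes differed in their response.

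The libraries held 15434956 to 29235902 counts in *skpo-1* on *E. faecalis*, 15174830 to 36682565 in *skpo-1* on *E. coli*, 22111065 to 33219494 in N2 on *E. faecalis* and 17392531 to 33924413 in N2 on *E. coli*. The lowest and the highest total each exceed the matching end of the reads per sample stated in the study's methods, for a reason not given in the sources used here. The *skpo-1* transcript itself stood at 1.62 to 2.26 and 2.35 to 2.66 CPM (a count relative to the total of its library, after TMM scaling) in the mutants on *E. faecalis* and *E. coli*, against 112 to 199 and 283 to 314 CPM in N2 on the same bacteria. N2 on *E. coli* replicate 2 and *skpo-1* on *E. faecalis* replicate 4 had the lowest summed CPM of the yolk and oocyte, pharynx and body wall muscle marker lists of their groups. Counts of members called are given below with and without these 2 libraries. N2 on *E. faecalis* replicate 3, which that run keeps, was also the lowest of its group in 2 of these lists. It had 31000 CPM of yolk and oocyte markers, beside 31100 and 30200 CPM in the 2 named libraries. Its body wall muscle markers summed to 1860 CPM, beside 794 and 480 CPM. In whole worms, fewer cells of a type and less RNA per cell cannot be told apart.

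All 35 members had counts. They lay on every chromosome of the set (9 on II, 7 on I, 5 each on IV, V and X, and 4 on III, WBcel235), and 29 passed the filter on low counts and were tested. Those not tested were *cut-1*, *cutl-1*, *cutl-4*, *cutl-7*, *cutl-19* and *cutl-27*, whose highest count in any library was 8, 4, 12, 6, 19 and 18, in that order. *cut-1* (II, 11269122 to 11271660, plus strand), known for the alae of dauer larvae, stood at 0 to 0.221 CPM over the 14 libraries. Exons of 11 members overlap those of another gene, by 221 bases on the same strand for *cutl-20* and *shc-1* and by 9 to 84 bases on opposite strands for *cut-3*, *cutl-5*, *cutl-6*, *cutl-8*, *cutl-11*, *cutl-13*, *cutl-15*, *cutl-17*, *cutl-18* and *cutl-23*. Whether the counting used strand is not given in the sources used here, so a part of these counts may belong to the neighbour.

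The family was a small part of the RNA, and *cut-2* and *cut-3* held much of it. The summed level of all members was 125, 179, 153 and 232 CPM in *skpo-1* on *E. faecalis* and 61.8, 95.6 and 92.7 CPM in *skpo-1* on *E. coli*. In N2 it was 130, 230 and 152 CPM on *E. faecalis* and 49.8, 61.4, 52.2 and 25.3 CPM on *E. coli*. In both genotypes every library on *E. faecalis* lay above every library on *E. coli*, and on *E. coli* the lowest mutant sum was 61.8 CPM beside a highest N2 sum of 61.4 CPM. *cut-2* made up 31.3% of the mean sum in *skpo-1* on *E. faecalis*, 46.8% in *skpo-1* on *E. coli*, 43.2% in N2 on *E. faecalis* and 18.3% in N2 on *E. coli*. Without *cut-2* and *cut-3* the other 33 members summed to 80.4 and 39.4 CPM in the mutants on *E. faecalis* and *E. coli*, and to 74.1 and 36.5 CPM in N2 on the same bacteria (sums of group means).

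**Figure D1:**
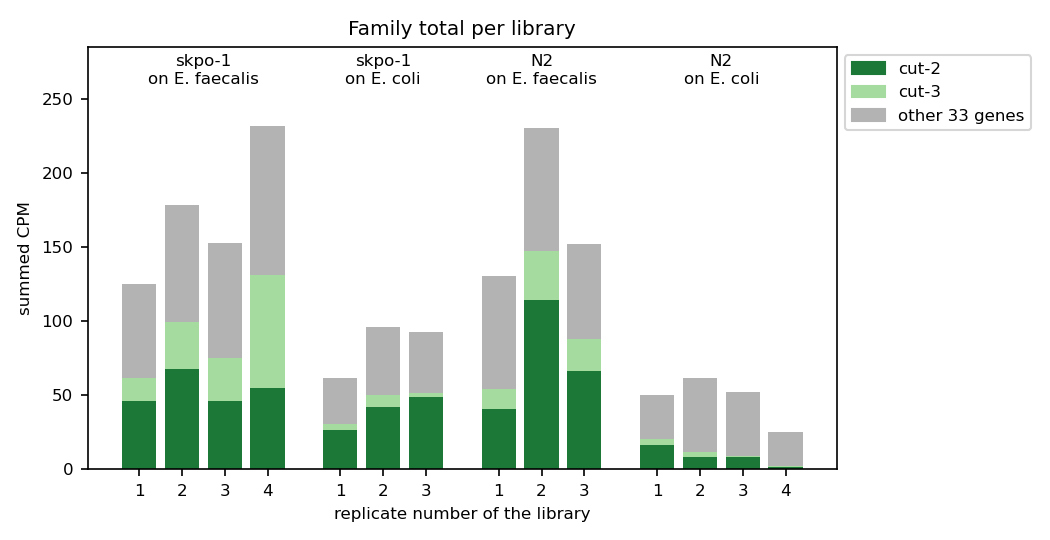
Summed CPM of the family in each library, stacked as *cut-2*, *cut-3* and all remaining members; the *skpo-1* groups are left of the N2 groups, each with *E. faecalis* before *E. coli*. The libraries on *E. faecalis* sit between 125 and 232 CPM and those on *E. coli* between 25.3 and 95.6 CPM, and *cut-2* is a thin slice only in N2 on *E. coli*.

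Per kilobase of exon, the scale on which levels can be set between genes, *cut-2* stood highest in every group, with means of 58.0 and 42.1 CPM per kb in *skpo-1* on *E. faecalis* and *E. coli*, and 79.4 and 9.29 CPM per kb in N2 on the same bacteria. *cut-3* came next in the groups on *E. faecalis*, at 29.8 CPM per kb in *skpo-1* and 17.9 CPM per kb in N2. It had 3.88 CPM per kb in *skpo-1* on *E. coli* and 1.56 CPM per kb in N2 on *E. coli*, where *cutl-26* with 3.07 CPM per kb lay above it. *cutl-26* was the highest of the remaining members in all 4 groups (4.40 and 2.88 CPM per kb in *skpo-1* on *E. faecalis* and *E. coli*, and 4.85 and 3.07 CPM per kb in N2). The median of those 33 members was 1.37 CPM per kb in *skpo-1* on *E. faecalis*, 0.402 in *skpo-1* on *E. coli*, 1.07 in N2 on *E. faecalis* and 0.399 in N2 on *E. coli*.

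In N2, *E. faecalis* went with higher RNA of most of the family. Of 29 members tested, 18 rose on *E. faecalis* relative to *E. coli* (62.1%) and none fell, where 19.2% of all 15685 genes tested rose and 4.10% fell. Members counted here as having risen or fallen passed 2 limits, a log2 fold change of 1 or more in size and a P below 0.05 from edgeR's quasi-likelihood test after Benjamini-Hochberg adjustment over all genes tested. No member was lower at an unadjusted P below 0.05, and DESeq2 also called 0 lower. The log2 fold change was above 0 for 26 of 29 members, with a median of 1.49, whereas the median of all genes was 0.03. The 3 libraries on *E. faecalis* lay above all 4 on *E. coli* for 19 members and below them for none, against 22.6% and 14.9% of all genes. Of the tested *cut* genes 4 of 5 rose, and of the tested *cutl* genes 14 of 24 rose. Among the members that rose, *cutl-5*, *cutl-6*, *cutl-17* and *cutl-22* needed their libraries on *E. faecalis* to pass the filter on low counts. Their highest levels in N2 on *E. coli* were 0.136, 0.262, 0.34 and 0.235 CPM, in that order. That they could be tested thus depended on the groups where they were high, and the same filter applied to all genes.

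*cut-2* (V, 13414949 to 13416064, plus strand) had 40.7, 114 and 66.5 CPM in N2 on *E. faecalis*, against 16.2, 8.37, 8.29 and 1.60 CPM in N2 on *E. coli*. The lowest *E. faecalis* library was well above the highest *E. coli* library, and the *E. coli* libraries themselves spread widely. This gave a log2 fold change of 3.10 (SE 0.503) and the smallest adjusted P of the family, 0.000788. *cut-3* (II, 8445169 to 8446831, minus strand), a ZP gene known for the alae of the first larval stage, had 13.6, 33.3 and 21.6 CPM in N2 on *E. faecalis*, against 4.02, 2.85, 0.504 and 0.553 CPM in N2 on *E. coli*. Its log2 fold change of 3.53 (SE 0.681, adjusted P = 0.00196) was the highest of the family, and its groups did not overlap.

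*cut-5* (X, 10333858 to 10338200, minus strand) and *cut-6* (III, 10911460 to 10916665, plus strand) are ZP genes known for larval alae and, for *cut-6*, for dauer body shape. *cut-6* had 3.4, 2.99 and 1.90 CPM in N2 on *E. faecalis*, against 0.340, 0.733, 0.542 and 0.307 CPM in N2 on *E. coli* (log2 fold change 2.44, SE 0.477, adjusted P = 0.00213). *cut-5* had 1.94, 1.46 and 0.841 CPM in N2 on *E. faecalis*, against 0.476, 0.602, 0.465 and 0.123 CPM in N2 on *E. coli* (1.68, SE 0.562, adjusted P = 0.0296). Both rose, with no overlap between the bacteria. *cut-4* (II, 10436136 to 10440087, plus strand) had 2.56, 2.77 and 2.28 CPM in N2 on *E. faecalis*, against 1.77, 0.602, 1.74 and 2.40 CPM in N2 on *E. coli*. Its groups overlapped and it passed no test (0.67, 95% confidence interval -0.35 to 1.69, adjusted P = 0.276).

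**Figure D2:**
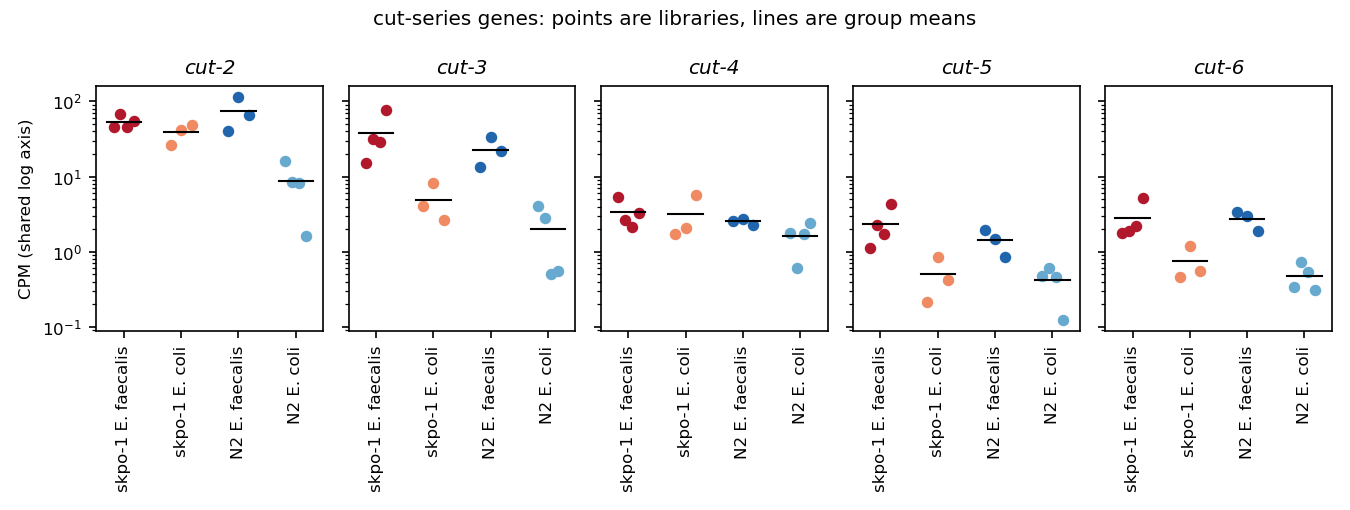
CPM of the 5 tested genes of the *cut* series on a shared log axis, with 1 point per library and a line at each group mean. *cut-3*, *cut-5* and *cut-6* are high on *E. faecalis* and low on *E. coli* in both genotypes, *cut-2* is low only in N2 on *E. coli*, at 1.60 to 16.2 CPM, and the groups of *cut-4* overlap.

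Among the *cutl* genes the largest rise in N2 was that of *cutl-5* (2.88, SE 0.868, adjusted P = 0.0188), a weakly expressed gene. It had 0.397, 0.457 and 0.434 CPM in N2 on *E. faecalis*, against 0.136, 0.0523, 0 and 0.0615 CPM in N2 on *E. coli*, where no count in replicate 3 allows up to 0.116 CPM (3 counts, counting error only). *cutl-22* had 1.10, 0.793 and 0.597 CPM in N2 on *E. faecalis*, against 0.0681, 0.235, 0.155 and 0.184 CPM in N2 on *E. coli* (2.24, SE 0.471, adjusted P = 0.00314). *cutl-23* had 2.12, 5.21 and 3.96 CPM in N2 on *E. faecalis*, against 1.5, 0.863, 0.775 and 0.615 CPM in N2 on *E. coli* (2.03, SE 0.375, adjusted P = 0.00157). In each of the 3 genes every *E. faecalis* library lay above every *E. coli* library.

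The better expressed *cutl-24* had 4.24, 6.77 and 5.97 CPM in N2 on *E. faecalis*, against 1.29, 1.65, 2.67 and 0.861 CPM in N2 on *E. coli* (1.78, SE 0.331, adjusted P = 0.00163). *cutl-10* stood at 3.36, 3.51 and 3.28 CPM on *E. faecalis*, against 0.953, 1.41, 1.63 and 0.676 CPM on *E. coli*, with little spread among the *E. faecalis* libraries (1.5, SE 0.3, adjusted P = 0.00238). *cutl-15* had 3.00, 5.88 and 4.70 CPM in N2 on *E. faecalis*, against 2.31, 1.91, 1.86 and 1.72 CPM in N2 on *E. coli* (1.22, adjusted P = 0.00844). *cutl-14* had 1.06, 0.914 and 2.09 CPM in N2 on *E. faecalis*, against 0.408, 0.811, 0.426 and 0.184 CPM in N2 on *E. coli* (1.49, adjusted P = 0.0222). Neither overlapped. *cutl-8* (2.06), *cutl-12* (1.17), *cutl-13* (1.59), *cutl-17* (1.96), *cutl-21* (1.37) and *cutl-28* (1.61) also rose with no overlap, and *cutl-6* rose with overlapping groups (1.98, adjusted P = 0.0411). Over the 14 *cutl* genes that rose, log2 fold changes ran from 1.17 to 2.88 and adjusted P from 0.00157 to 0.0411. *cutl-26*, the most abundant *cutl* gene per kilobase, had an adjusted P of 0.0415 but a log2 fold change of 0.66, under the limit of 1.

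The 3 lowest log2 fold changes in N2 were those of *cutl-11* (-0.33, 95% confidence interval -1.42 to 0.75), *cutl-18* (-0.27, -0.88 to 0.34) and *cutl-2* (-0.18, -1.62 to 1.25). *cutl-18* had 3.49, 3.08 and 2.01 CPM in N2 on *E. faecalis*, against 3.68, 3.92, 2.75 and 3.38 CPM in N2 on *E. coli*, with overlapping groups. *cutl-2* had 4.55, 1.25 and 1.25 CPM in N2 on *E. faecalis*, against 0.749, 5.86, 3.10 and 0.430 CPM in N2 on *E. coli*. Its libraries spread widely within each group, and the interval reaches to both sides of 0.

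Of the 18 rises in N2, 8 held in every alternative run (*cut-2*, *cut-3*, *cut-6*, *cutl-10*, *cutl-17*, *cutl-22*, *cutl-23* and *cutl-24*). Leaving out N2 on *E. faecalis* replicate 1, 2 or 3 gave 15, 9 or 15 members, where 20.5, 13.8 or 13.2% of all genes rose, and leaving out N2 on *E. coli* replicate 1, 2, 3 or 4 gave 13, 20, 15 or 14, where 16.5, 23.4, 16.5 or 15.9% did (29 or 30 members tested). Fitting only the N2 libraries gave 11 of 28 members, where 13.6% of all genes rose. The log2 fold change of each member called stayed above 0 in every alternative. Without both libraries low in yolk and muscle markers, 20 members rose, where 23.5% of all genes did.

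**Figure D3:**
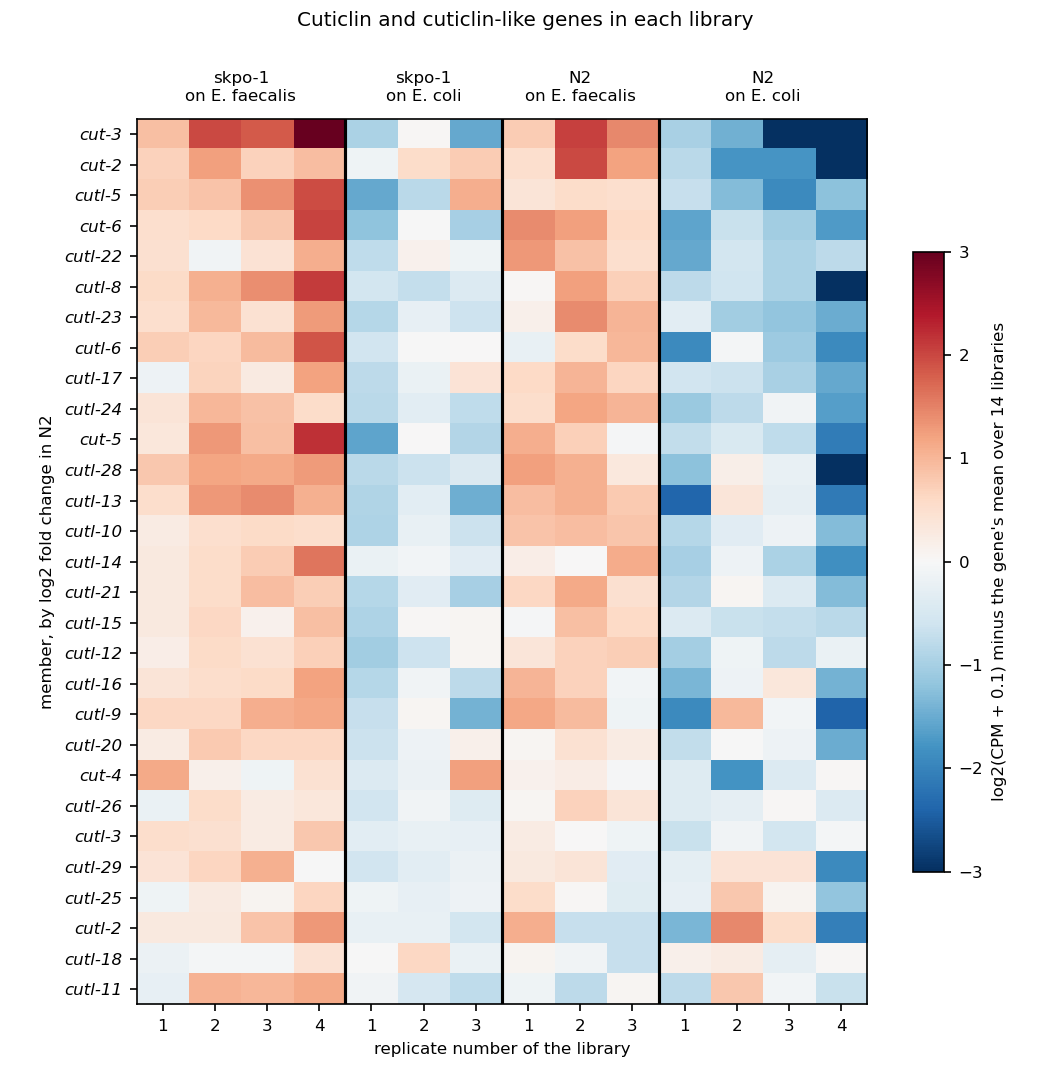
Heat map of the 29 tested members (rows, ordered by log2 fold change in N2) over the 14 libraries (columns), as log2(CPM + 0.1) minus the gene's mean, with red above and blue below the mean and colours ending at 3 in each direction. The columns on *E. faecalis* are mostly red and those on *E. coli* mostly blue in both genotypes; replicate 4 is the highest library of *skpo-1* on *E. faecalis* for 20 members, and replicate 4 the lowest of N2 on *E. coli* for 19.

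In *skpo-1* mutants too, members of the family were higher on *E. faecalis*. On *E. faecalis* relative to *E. coli*, 11 of 29 members rose in *skpo-1* (37.9%) and none fell, where 10% of all genes tested rose and 1.76% fell. DESeq2 called 12 of 35 members higher, where 10.6% of all genes were, and 0 lower. No member was lower at an unadjusted P below 0.05 in edgeR's test. The log2 fold change was above 0 for 28 of 29 members, with a median of 1.19 beside 0.12 over all genes. The 4 libraries on *E. faecalis* lay above all 3 on *E. coli* for 21 members and below them for none, against 25.6% and 20.1% of all genes. In number, 3 of 5 tested *cut* genes and 8 of 24 tested *cutl* genes rose.

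*cut-3* again had the highest log2 fold change (2.93, SE 0.702, adjusted P = 0.0121). It stood at 15, 31.4, 28.8 and 76.2 CPM in *skpo-1* on *E. faecalis*, against 4.04, 8.10 and 2.66 CPM in *skpo-1* on *E. coli*. *cut-5* had 1.11, 2.24, 1.70 and 4.28 CPM in *skpo-1* on *E. faecalis*, against 0.218, 0.861 and 0.419 CPM in *skpo-1* on *E. coli* (2.22, SE 0.588, adjusted P = 0.0192). *cut-6* had 1.78, 1.88, 2.20 and 5.27 CPM in *skpo-1* on *E. faecalis*, against 0.466, 1.21 and 0.559 CPM in *skpo-1* on *E. coli* (1.88, SE 0.490, adjusted P = 0.0180). Replicate 4 on *E. faecalis* was the highest library for each of these genes, and none of them overlapped between the bacteria.

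Of the *cutl* genes, *cutl-8* rose most in the mutants (2.14, SE 0.584, adjusted P = 0.0221). It had 1.2, 1.72, 2.20 and 3.62 CPM in *skpo-1* on *E. faecalis*, against 0.497, 0.431 and 0.559 CPM in *skpo-1* on *E. coli*. *cutl-13* had 1.69, 2.95, 3.20 and 2.48 CPM in *skpo-1* on *E. faecalis*, against 0.560, 0.900 and 0.350 CPM in *skpo-1* on *E. coli* (2.05, SE 0.590, adjusted P = 0.0277). *cutl-28* had 3.91, 5.12, 4.96 and 5.46 CPM in *skpo-1* on *E. faecalis*, against 1.21, 1.37 and 1.61 CPM in *skpo-1* on *E. coli* (1.81, SE 0.584, adjusted P = 0.0423). Both groups of *cutl-28* were tight and far apart, and in N2 on *E. coli* the gene ran from 0.0615 to 2.51 CPM. *cutl-10*, *cutl-12*, *cutl-21*, *cutl-23* and *cutl-24* rose too, with log2 fold changes of 1.11, 1.10, 1.44, 1.48 and 1.37.

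*cut-2* was not called in the mutants, where its level on *E. coli* was high. It had 46.2, 67.9, 46.3 and 54.6 CPM in *skpo-1* on *E. faecalis*, against 26.2, 42.2 and 48.7 CPM in *skpo-1* on *E. coli*. The groups overlapped, and the log2 fold change was 0.47 (95% confidence interval -0.57 to 1.5, adjusted P = 0.499). *cut-4* had 5.33, 2.63, 2.13 and 3.26 CPM in *skpo-1* on *E. faecalis*, against 1.74, 2.07 and 5.66 CPM in *skpo-1* on *E. coli* (0.11, 95% confidence interval -0.90 to 1.12). With *cutl-18* (-0.13, -0.74 to 0.47) and *cutl-25* (0.44, -0.43 to 1.31), *cut-4* was among the 3 lowest of the mutants' response.

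None of the 11 rises in the mutants held in every alternative. Replicate 1 of *skpo-1* on *E. coli* was the lowest library of its group for 19 of 29 members. Without it, 0 of 30 members were called in edgeR's quasi-likelihood test, where 3.76% of all genes were called higher. In that run 13 members had an unadjusted P below 0.05. The share of all genes at that limit was not taken for this run. With all 14 libraries, 38.3% of all genes and 21 members were at that limit. Leaving out *skpo-1* on *E. coli* replicate 2 or 3 gave 7 or 6 members, where 5.27 or 7.58% of all genes rose. Leaving out *skpo-1* on *E. faecalis* replicate 1, 2, 3 or 4 gave 10, 7, 7 or 4, where 8.34, 6.64, 8.55 or 6.68% did. Fitting only the mutant libraries gave 18 members, where 14.4% of all genes rose, so that the order of the counts of N2 and *skpo-1* turned round when each was fitted alone. Without both libraries low in yolk and muscle markers there were 10, where 10.9% of all genes rose.

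**Figure D4:**
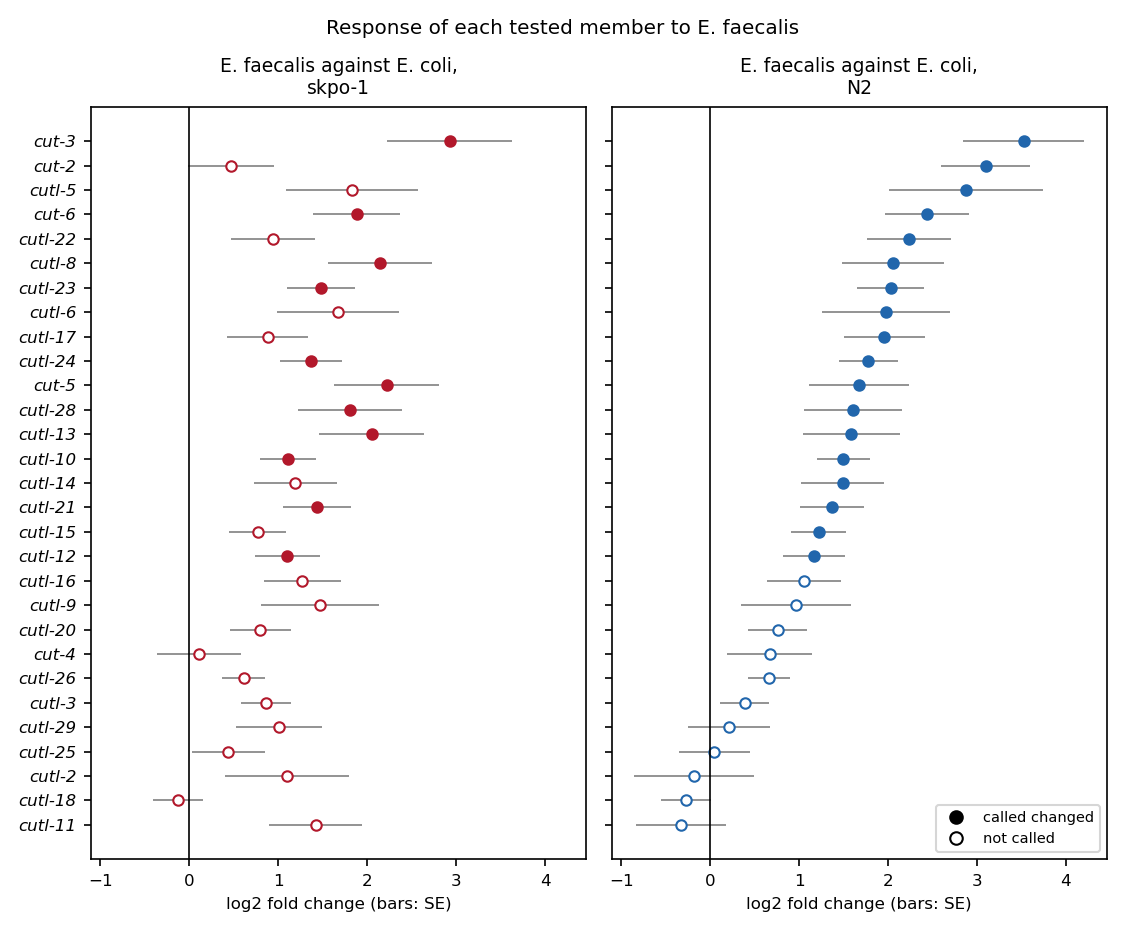
Log2 fold change on *E. faecalis* relative to *E. coli* of the 29 tested members, with standard errors, in *skpo-1* (left) and N2 (right); filled points were called changed. The members lie almost entirely to the right of 0 in both panels, 11 called in *skpo-1* and 18 in N2, and *cut-2* is at 0.47 in *skpo-1* and 3.10 in N2.

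The 2 responses share no library. All 11 members called in the mutants were also called in N2 (*cut-3*, *cut-5*, *cut-6*, *cutl-8*, *cutl-10*, *cutl-12*, *cutl-13*, *cutl-21*, *cutl-23*, *cutl-24* and *cutl-28*), 7 were called in N2 alone (*cut-2*, *cutl-5*, *cutl-6*, *cutl-14*, *cutl-15*, *cutl-17* and *cutl-22*) and 11 in neither. When each genotype was fitted alone, 18 members were called in *skpo-1* and 11 in N2, so the mutant calls were then not all N2 calls. The share of all genes called in both responses was not taken. A call in N2 alone does not show that the responses differed. The difference itself, the *skpo-1* response minus the N2 response, was called for 0 members and 0% of all genes in edgeR's quasi-likelihood test. DESeq2 called it for 0 of 35 members, where 10 of 17076 genes were higher and 45 lower. In edgeR's test 2 members had an unadjusted P below 0.05, beside 7.75% of all genes. The median difference over the members was -0.04, and 14 of 29 were above 0.

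Those 2 members were *cut-2* and *cutl-11*, at opposite ends of the family. For *cut-2* the difference was -2.63 on the log2 scale (SE 0.682, 95% confidence interval -4.09 to -1.18, unadjusted P = 0.00156), with an adjusted P of 0.44 over all genes that ran from 0.054 to 0.839 over the alternatives. For *cutl-11* it was 1.75 (SE 0.727, 0.20 to 3.30, adjusted P = 0.579). *cutl-11* had 0.444, 1.23, 1.19 and 1.30 CPM in *skpo-1* on *E. faecalis* and 0.497, 0.352 and 0.280 CPM in *skpo-1* on *E. coli*, and in N2 0.486, 0.274 and 0.570 CPM on *E. faecalis* and 0.272, 1.02, 0.504 and 0.307 CPM on *E. coli*. After *cut-2* the lowest differences were those of *cutl-22* (-1.30, -2.72 to 0.13) and *cutl-17* (-1.08, -2.45 to 0.30). After *cutl-11* the highest were those of *cutl-2* (1.28, -0.79 to 3.35) and *cutl-29* (0.79, -0.63 to 2.22). The 95% confidence intervals of the members other than *cut-2* and *cutl-11* included 0.

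On *E. coli*, no member was called between *skpo-1* and N2 in edgeR's quasi-likelihood test, where 0.567% of all genes rose and 0.0765% fell. DESeq2 called 1 of 35 members higher, *cut-2*, where 1.66% of all genes were higher. In edgeR's test *cut-2* was also the 1 member at an unadjusted P below 0.05, beside 9.40% of all genes. The median log2 fold change of the members was 0.19 and that of all genes -0.04, and 17 of 29 members were above 0.

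*cut-2* was the one member whose genotypes did not overlap on *E. coli*, where 5.18% of all genes were higher without overlap in the mutants and 3.25% lower. It had 26.2, 42.2 and 48.7 CPM in the mutants on *E. coli* (39.0 ± 11.6, SD, n = 3), against 16.2, 8.37, 8.29 and 1.60 CPM in N2 on *E. coli* (8.62 ± 5.97, SD, n = 4). The log2 fold change was 2.18 (SE 0.493, 95% confidence interval 1.13 to 3.23) with an adjusted P of 0.0618, just above the threshold. That P ran from 0.00129 to 0.346 over the alternatives. It passed with the authors' normalization factors (0.0483), with no filter on low counts (0.0412), in DESeq2 (0.00129) and when N2 on *E. coli* replicate 1 was left out (0.0322), and the log2 fold change stayed between 1.84 and 2.64 whichever library was left out. The *cut-2* response in N2, the response difference and this comparison all use the N2 libraries on *E. coli*, so their values are not independent of each other. Of 5 adult and strut collagens, 1 was called in the same comparison and 4 had an unadjusted P below 0.05. *bli-6*, a strut collagen, rose, with 29.7, 39.0 and 109 CPM in the mutants on *E. coli*, against 13.1, 6.70, 15.7 and 8.42 CPM in N2 on *E. coli* (2.43, adjusted P = 0.0234). *bli-1*, *bli-2* and *col-7* had log2 fold changes of 2.26, 2.43 and 2.12 without passing the adjusted test, and *col-19* one of -0.07. Other lists moved in this comparison too. Of 16 sperm markers 0 were called and 8 had an unadjusted P below 0.05 in edgeR's test (median log2 fold change 1.04). Of 13 epidermal and molting regulators 0 were called and 3 were at that limit, beside 9.40% of all genes. The part of these genes in the *cut-2* difference was not tested.

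After *cut-2* the highest log2 fold changes on *E. coli* were those of *cutl-5* (2.01, 95% confidence interval -0.06 to 4.09, adjusted P = 0.539) and *cut-3* (1.34, -0.09 to 2.77, adjusted P = 0.558). *cut-3* had 4.04, 8.10 and 2.66 CPM in the mutants on *E. coli*, against 4.02, 2.85, 0.504 and 0.553 CPM in N2 on *E. coli*, and the genotypes overlapped. The lowest were those of *cutl-2* (-0.67), *cutl-11* (-0.52) and *cutl-9* (-0.37), none of which passed the test.

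On *E. faecalis*, too, no member was called between the genotypes in edgeR's quasi-likelihood test, where 0.0638% of all genes rose and 0.0446% fell. Nor was any member called in DESeq2, where 0.439% of all genes rose. In edgeR's test 1 member, *cutl-11*, had an unadjusted P below 0.05, beside 7.74% of all genes. The median log2 fold change was 0.19 beside -0.02 for all genes. *cut-2*, the gene with the highest value on *E. coli*, here had the lowest. It stood at 46.2, 67.9, 46.3 and 54.6 CPM in *skpo-1* on *E. faecalis* (53.8 ± 10.2, SD, n = 4), against 40.7, 114 and 66.5 CPM in N2 on *E. faecalis* (73.6 ± 37, SD, n = 3), with overlapping groups and a log2 fold change of -0.45 (95% confidence interval -1.47 to 0.56, adjusted P = 0.823).

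The other low values on *E. faecalis* were those of *cutl-22* (-0.43) and *cutl-10* (-0.41), and the high ones those of *cutl-11* (1.23, adjusted P = 0.639), *cutl-5* (0.96) and *cut-5* (0.74). *cutl-5* was higher without overlap in the mutants (5.21% of all genes), at 0.533, 0.583, 0.879 and 1.38 CPM in *skpo-1* on *E. faecalis*, against 0.397, 0.457 and 0.434 CPM in N2 on *E. faecalis*. *cutl-10* was lower without overlap (3.76% of all genes), at 2.18, 2.59, 2.76 and 2.67 CPM in *skpo-1*, against 3.36, 3.51 and 3.28 CPM in N2. Neither difference passed the test (adjusted P = 0.729 for *cutl-5* and 0.741 for *cutl-10*).

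**Figure D5:**
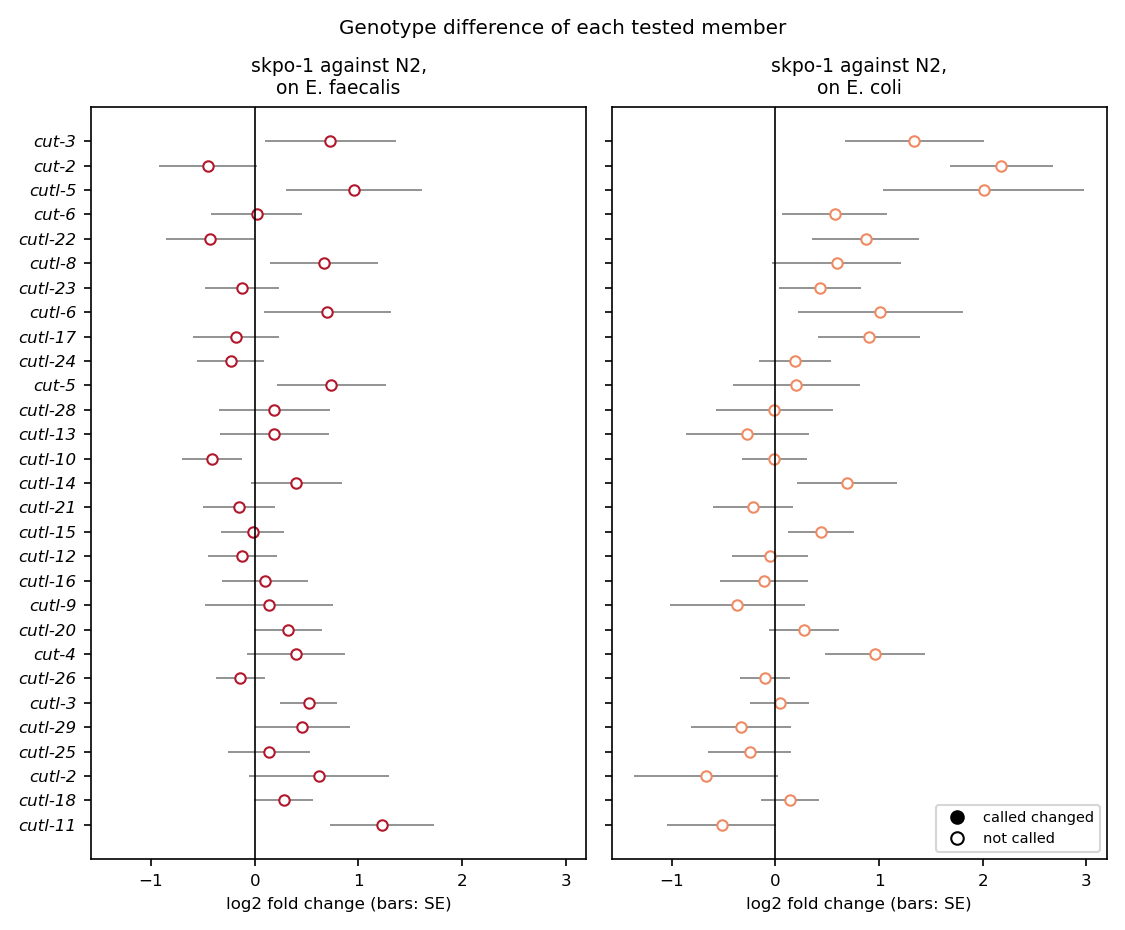
Log2 fold change of *skpo-1* relative to N2 of the 29 tested members, with standard errors, on *E. faecalis* (left) and *E. coli* (right), in the order of the response in N2; no member was called in either comparison. *cut-2* lies at -0.45 on *E. faecalis* and at 2.18 on *E. coli*.

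Calls in the other lists of cuticle genes stand beside the 19.2% of all genes that rose in N2 and the 10% that rose in *skpo-1*. Of 7 further ZP-domain genes, 1 rose in N2 on *E. faecalis* and 0 in *skpo-1*, and their medians on the log2 scale were 0.54 in *skpo-1* and 0.84 in N2. The riser was *dpy-1*, known for body shape, with 4.15, 6.74 and 4.70 CPM in N2 on *E. faecalis*, against 2.04, 0.863, 1.36 and 1.29 CPM in N2 on *E. coli* (1.93, SE 0.405, adjusted P = 0.00307), and a log2 fold change of -0.04 in *skpo-1*. Of 7 genes of the precuticle and the lumen matrix, 1 rose in N2 (the lipocalin *lpr-3*, 1.41, adjusted P = 0.0158) and 0 in *skpo-1*. Of 13 epidermal and molting regulators, 2 rose in N2 and 0 in *skpo-1*. They were *nas-37*, an astacin protease of molting (1.14, adjusted P = 0.00366), and *lin-42*, a period homolog of larval timing (1.11, adjusted P = 0.0468). The *dpy-1* call held in every alternative. That of *lpr-3* was lost without N2 on *E. faecalis* replicate 2 (adjusted P = 0.0539) or with only the compared groups fitted, that of *nas-37* without N2 on *E. faecalis* replicate 3 (log2 fold change 0.93), and that of *lin-42* in 17 of 22 alternatives.

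Of the peroxidases and oxidase components of cuticle cross-linking 7 of 8 were tested, and 2 rose and 1 fell in N2 on *E. faecalis*. *skpo-2*, a close relative of *skpo-1*, rose by 2.40 (SE 0.495, adjusted P = 0.00279), and *tsp-15*, a tetraspanin that works with the dual oxidase BLI-3, by 1.01 (adjusted P = 0.0167) on the log2 scale. The gene that fell was *skpo-1* itself (-1.03, adjusted P = 0.0012), where 4.10% of all genes fell in N2. In *skpo-1* mutants none of the 7 was called between the bacteria, with 3 at an unadjusted P below 0.05 beside 38.3% of all genes. There *skpo-2* had a log2 fold change of 0.65. Of 4 proprotein convertases, enzymes that cleave secreted precursors, *egl-3* rose in N2 (1.36, adjusted P = 0.00138) and *aex-5* in *skpo-1* (1.07, adjusted P = 0.00456). The calls of *skpo-2* and *egl-3* held in every alternative. That of *tsp-15* was lost in 8 of 22, that of *skpo-1* without N2 on *E. faecalis* replicate 2 or 3 (log2 fold change -0.87 at the least), and that of *aex-5* without *skpo-1* on *E. faecalis* replicate 2 (0.98). Between the genotypes no gene of these lists was called on either bacterium other than *skpo-1*.

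Markers of several cell types moved with the bacteria. Marker counts at an unadjusted P below 0.05 between the bacteria stand beside 48.8% of all genes in N2 and 38.3% in *skpo-1*. Summed markers of duct, pore and socket cells, cells lined by cuticle, were at 4.96 to 7.39 CPM in *skpo-1* on *E. faecalis* and 1.37 to 2.70 CPM in *skpo-1* on *E. coli*, and at 2.88 to 8.39 CPM in N2 on *E. faecalis* and 0.476 to 1.74 CPM in N2 on *E. coli*. All 3 of these markers rose in N2 and 1 in *skpo-1*. Seam cell markers (4 tested) gave no call in either genotype, with 2 at an unadjusted P below 0.05 in each, and their sum was 36.5 to 47.8 and 45.2 to 56.2 CPM in *skpo-1* on *E. faecalis* and *E. coli*, and 30.1 to 48.7 and 37.1 to 53.7 CPM in N2 on the same bacteria. Furrow collagens, which belong to the same cuticle, summed to 77.7 to 116 and 30 to 56 CPM in *skpo-1* on *E. faecalis* and *E. coli*, and to 63.8 to 74.9 and 8.11 to 54.1 CPM in N2 (1 of 6 rose in N2 and 0 in *skpo-1*).

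Sperm markers rose in N2 (15 of 16 tested) and not in *skpo-1* (0 of 16, with 0 at an unadjusted P below 0.05). The difference between these responses was called for 0 of 16, with 10 at an unadjusted P below 0.05, beside 7.75% of all genes for that difference. Their sums were 45 to 126 and 48 to 147 CPM in *skpo-1* on *E. faecalis* and *E. coli*, and 90.5 to 243 and 33.8 to 60.7 CPM in N2. Of 12 yolk and oocyte genes 3 fell in each genotype, where 4.10% of all genes fell in N2 and 1.76% in *skpo-1*. The adult and strut collagens summed to 193 to 438 and 860 to 1540 CPM in *skpo-1* on *E. faecalis* and *E. coli*, and to 182 to 455 and 682 to 1490 CPM in N2, and most of each sum was *col-19*, the 1 of 5 that fell in each genotype (-1.99 in *skpo-1* and -2.04 in N2). Pharynx markers summed to 168 to 554 and 258 to 385 CPM in *skpo-1* on *E. faecalis* and *E. coli*, and to 488 to 754 and 85.0 to 404 CPM in N2, and 1 of 4, *ceh-22*, rose in each genotype. Body wall muscle markers summed to 480 to 2170 and 3310 to 4390 CPM in *skpo-1*, and to 1860 to 2410 and 794 to 3900 CPM in N2 on the same bacteria, with 0 of 3 called (2 at an unadjusted P below 0.05 in *skpo-1* and 0 in N2). In N2, 2 of 4 neuronal markers and 1 of 3 tested vulval markers rose, and none of these in *skpo-1*. No intestinal marker was called, with 2 of 4 at an unadjusted P below 0.05 in each genotype, near the shares of all genes at that limit. The part of these shifts in the family's rise was not tested.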

How the data were processed

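RNA-seq counts per gene of 14 libraries were analyzed. The authors trimmed reads with Trimmomatic 0.36, quantified them with salmon 1.2.1 against WBcel235 and used tximport to sum them by gene. The values deposited first are these estimated counts, which the authors had rounded. The authors also deposited a signal, the DESeq2-normalized form of the same counts, which served here as an alternative scaling. Salmon shares reads among similar transcripts, so levels of genes with overlapping exons are less certain. WormBase identifiers were matched to symbols (19793 of 21982), and coordinates and exon lengths were taken from the WBcel235 annotation of Ensembl release 115. No member's sequence was printed.

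Genes were kept by edgeR's filterByExpr (minimum count 10, minimum total 15). After TMM scaling, 1 model with a coefficient per group was fitted to all 14 libraries and tested by quasi-likelihood (R 4.3.3, edgeR 4.0.16, limma 3.58.1). P was adjusted by the Benjamini-Hochberg method over 15685 genes, and a call needed an adjusted P under 0.05 together with a log2 fold change of 1 or more in size. Standard errors were derived from the F statistics, and intervals are 95% confidence intervals. The common biological coefficient of variation was 0.293. In a check for repeated deposits of a library, no replicate pair of 18 agreed within counting noise (lowest chi-square per degree of freedom 7.23). Each library was counted as 1 replicate, as the labels describe them.

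The text names with values every *cut* gene, the members called in any comparison (for some only the log2 fold change), the 3 highest and 3 lowest log2 fold changes per comparison, and up to 4 called genes of each other list. The members and lists were chosen with earlier results of these data known. The family itself was given no test. Alternatives were DESeq2 size factors, the authors' factors, no filter, DESeq2 1.42.0, only the compared groups, a replicate block, no minimum fold change and each library left out. Leaving out both libraries low in yolk and muscle markers was chosen after seeing the data. The methods were tested on simulated data.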

Additional observations from a re-analysis of the deposited data

Results flagged for a closer look

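Each of the 29 tested members was checked for a library far from the rest in the 2 groups of 4, and 3 of these 58 sets of values held one, where chance gives about 1 in 20. All 3 lay in *skpo-1* on *E. faecalis*. *cut-6* had 5.27 CPM in replicate 4, against 1.78 to 2.20 CPM in the other libraries of the group. *cutl-18* had 4.52 CPM in replicate 4, against 2.93 to 3.20 CPM in the others. *cutl-11* had 0.444 CPM in replicate 1, against 1.19 to 1.30 CPM in the others. Replicate 4 was also the group's lowest in summed yolk, pharynx and body wall muscle markers and the highest for 20 of 29 members, and replicate 1 was the lowest for 21. Without replicate 4 the log2 fold change of *cut-6* on *E. faecalis* relative to *E. coli* in *skpo-1* was 1.37 and no longer called. The other library low in these markers, N2 on *E. coli* replicate 2, was the highest of its group for 16 of 29 members.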

How the results depend on the processing

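The direction of every called member held under all alternatives. In N2, 18 members rose, and 11 when only the compared groups were fitted (13.6% of all genes); with each library left out the count ran from 9 to 20. In *skpo-1*, 11 rose, and 18 when only the compared groups were fitted (14.4% of all genes); with each library left out it ran from 0 to 16. For *skpo-1* relative to N2 on *E. coli*, 0 members were higher, and 1 (*cut-2*) with the authors' factors, with no filter, in DESeq2 and without N2 on *E. coli* replicate 1 (range 0 to 1 with each library left out). In those 4 runs 0.682, 0.6, 1.66 and 0.499% of all genes were higher, in that order. The cause of these shifts was not tested. Counts of members lower, and of members called for the other comparisons, were 0 throughout. Of 36 uncalled values followed, 14 changed sign in at least 1 alternative. Median log2 fold changes ran from 1.23 to 1.77 in N2 and from 1.06 to 1.35 in *skpo-1*.

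Whether replicate numbers pair the libraries was not settled. Of 19 same-numbered pairs, 9 had residuals correlated above 0.1 (r -0.527 to 0.245), and differently numbered pairs were not examined. With the replicate block, 17 members rose in N2 and 8 in *skpo-1*, where 17.3 and 8.19% of all genes did, and 0 members were called in the other comparisons. Low counts limit the 6 untested members and *cutl-5*, *cutl-6* and *cutl-8*, tested genes that had 1 or 2 libraries without counts. They also limit other tested members in N2 on *E. coli*. There *cutl-22* had 1, 9, 4 and 3 counts and *cutl-17* 5, 12, 6 and 2, and both were called in N2 in every alternative. Both genes needed their libraries on *E. faecalis* to pass the filter. The lowest count was 2 for *cut-5* and *cutl-13* and 1 for *cutl-28*.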
